A study of Mus musculus with 6 samples.

Results

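The core genes of the circadian clock were followed in 4T1 cells, a mouse mammary carcinoma line, after hairpins against the long noncoding RNA AU021063. The members were taken by gene symbol (Arntl, Clock, Per1, Per2, Per3, Cry1, Cry2, Nr1d1, Nr1d2 and Dbp), and all 10 were found among the 24346 symbols listed for each library. The mRNA of 6 libraries was sequenced, in 3 groups of 2. Cells named shRNA1 and cells named shRNA3 each carried a short hairpin RNA against AU021063, and WT cells had been mock transfected. A culture with a non-targeting hairpin was not analysed here. The sources used here do not say whether the hairpin cells were a clone or a pool, at what hour the cells were harvested, or whether replicate libraries stem from separate cultures. The p-values therefore reflect the spread of these libraries alone, and that spread may be technical. Levels are in FPKM, fragments per length of transcript and per mapped fragments of the library, so levels of different genes can be compared. Differences were taken as log2(FPKM + 1), where the change of a low gene comes out too small, and a gene was called at a Benjamini-Hochberg adjusted p under 0.05 in limma over all genes tested.

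The mammalian clock is a feedback loop of transcription. CLOCK and BMAL1 (the product of Arntl) bind E-boxes and switch on the Per, Cry, Nr1d and Dbp genes. The PER and CRY proteins then repress CLOCK and BMAL1, and the REV-ERB receptors made from Nr1d1 and Nr1d2 repress Arntl. DBP, a bZIP factor, carries the rhythm to genes with D-boxes. In cultured cells each cell runs its own clock, and the cells drift out of phase unless a stimulus such as serum or a glucocorticoid sets them together.

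The files of the 6 libraries were similar in size. Values summed to between 560862 and 604022 FPKM, the ratios of low values put the depth at 86.8% to 105% of that of WT replicate 1, and replicate libraries had a median difference of 4.32% to 4.47% over genes of at least 10 FPKM. AU021063 was at 1.04 and 0.572 FPKM with shRNA1, at 0.785 and 0 FPKM with shRNA3, and at 1.82 and 1.67 FPKM in WT. Its mean over the 6 libraries, 0.983 FPKM, was under the filter of 1 FPKM used for the fit. The lower level of AU021063 with the hairpins was thus not tested, and knockdown below only names the hairpin libraries. Of 6 markers of carcinoma epithelium 5 averaged at least 1 FPKM, led by Krt8 and Krt18, while Cldn7 was near 0. Their summed level was 1021 to 1090 FPKM with shRNA1, 734 to 737 FPKM with shRNA3 and 929 to 962 FPKM in WT. Nearly all of that sum was Krt8 and Krt18. With shRNA3 Krt8 averaged 265 FPKM, Krt18 458 and Krt7 8.42, against 428, 505 and 9.75 FPKM in WT. Epcam and Cdh1 went the other way, at 3.27 and 1.61 FPKM with shRNA3 against 2.11 and 1.25 FPKM in WT. The summed level of 5 leukocyte markers was 16.0 to 18.5 FPKM with shRNA1, 27.5 to 28.1 FPKM with shRNA3 and 6.50 to 6.69 FPKM in WT. It came almost wholly from Cd68, a lysosomal membrane protein, while Ptprc, Cd3e and Itgam were at 0 in all 6 libraries. The 4 endothelial markers summed to at most 0.194 FPKM in any library. The 6 fibroblast markers summed to 61.3 to 62.0 FPKM with shRNA1, 59.7 to 63.7 FPKM with shRNA3 and 70.0 to 70.8 FPKM in WT, nearly all of it from Pdgfra and Pdgfrb, with Col3a1 at 0 throughout. The part of the epithelial, Cd68, Pdgfra and Pdgfrb levels in the results below was not tested.

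All 10 clock genes passed the filter of a mean of at least 1 FPKM. In WT cells Nr1d2 stood highest at 35.0 ± 0.913 FPKM (SD, n = 2), above Nr1d1 at 15.9 ± 1.01 and Arntl at 14.5 ± 0.531 FPKM. Per1, Dbp, Cry2, Per3 and Clock followed between 7.31 and 6.40 FPKM, and each overlapped its neighbour in this order. Cry1 and Per2 were lowest at 2.95 ± 0.255 and 2.94 ± 0.186 FPKM and overlapped each other. With shRNA3 the order changed: Dbp, at 17.5 ± 0.303 FPKM, and Per1, at 17.3 ± 0.793 FPKM, stood above Arntl at 12.5 ± 0.178 FPKM. With shRNA1 the order began as in WT, with Nr1d2 at 23.3 ± 0.870, Nr1d1 at 16.4 ± 1.22 and Arntl at 12.7 ± 1.24 FPKM, and Cry1 was lowest at 2.44 ± 0.334 FPKM.

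**Figure D1:**
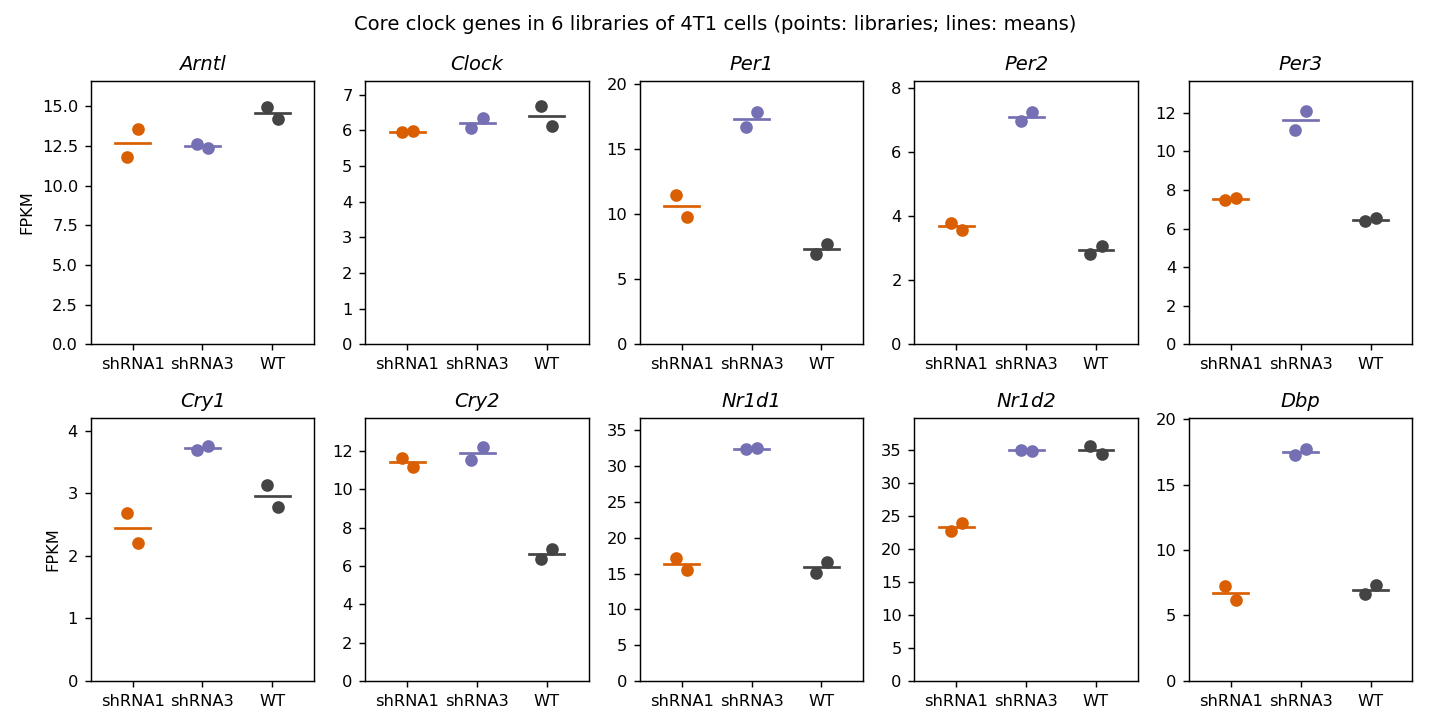
FPKM of the 10 core clock genes in each library, with shRNA1, shRNA3 and WT from left to right; points are libraries and lines are group means (n = 2). The shRNA3 points of Per1, Per2, Per3, Nr1d1 and Dbp lie above all shRNA1 and WT points, those of Cry2 share the shRNA1 level, and the shRNA1 points of Nr1d2 lie below all others.

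Most of the repressor genes, Nr1d1 and the output gene Dbp were higher with shRNA3, while the activators Arntl and Clock were not. With shRNA3, 6 of the 10 members rose against WT (Per1, Per2, Per3, Cry2, Nr1d1 and Dbp), 1 fell (Arntl) and 3 did not pass. In this comparison 55.2% of the 11079 genes tested were called, 27.4% higher and 27.8% lower. With 10 members, the number called was near this background. The median log2 change of the members was 0.76, against -0.01 for all genes, and the median size of change, without its sign, was 0.76 against 0.22. With shRNA1, 3 members rose (Per1, Per2 and Cry2), 1 fell (Nr1d2) and 6 did not pass, where 36.0% of all genes were called, 17.6% higher and 18.4% lower. The median of the members was then 0.00, against -0.01 for all genes, and the median size 0.20 against 0.15. Over the mean of both hairpins 6 members rose, 2 fell and 2 did not pass, with 50.0% of all genes called, 24.1% higher and 25.9% lower, and medians of 0.50 and -0.01. A fit with a single knockdown group of 4 libraries counts the hairpins' difference as spread. It called 1 member, Cry2, and 1513 of the 11079 genes tested. With the hairpins as separate groups 8 members and 5538 genes were called over both hairpins. Each hairpin is therefore given on its own below. With libraries rescaled to the same total, 2 members were higher and 2 lower with shRNA1. There 1458 of the 11079 genes were higher and 2722 lower. Of all genes called 37.6% were then higher with shRNA3, 34.9% with shRNA1 and 34.3% over both, against 49.7%, 49.0% and 48.2%. With quantile normalization 7 members were higher and 0 lower with shRNA3, where 2993 of the 11079 genes were higher and 3045 lower. Over both hairpins 6 members were then higher and 1 lower, where 2594 genes were higher and 2824 lower. Both hairpins were set against the same WT libraries. In bulk RNA, fewer cells that express a gene and less of its RNA per cell cannot be told apart.

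**Figure D2:**
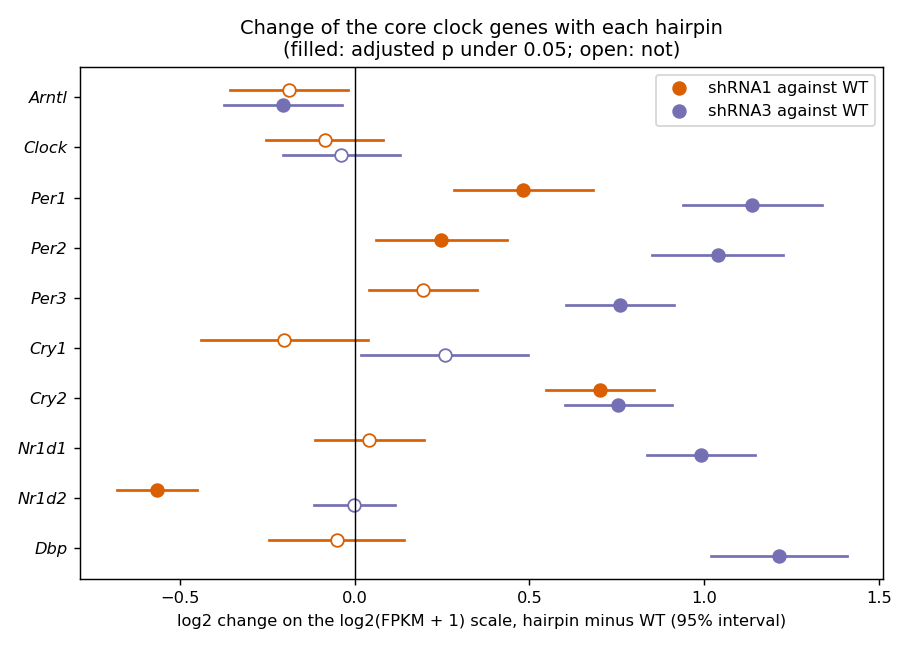
Log2 change of each core clock gene with shRNA1 and with shRNA3 against WT on the log2(FPKM + 1) scale, with 95% intervals from limma; filled points passed an adjusted p of 0.05 and open points did not. With shRNA3 Dbp (1.21), Per1 (1.14), Per2 (1.04) and Nr1d1 (0.99) lie farthest right; with shRNA1 Cry2 (0.70) lies farthest right and Nr1d2 (-0.57) farthest left.

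Arntl encodes BMAL1, the partner without which CLOCK does not drive the loop (chromosome 7, 113207465 to 113314126, plus strand, mm10). It was at 11.8 and 13.5 FPKM with shRNA1, at 12.6 and 12.4 FPKM with shRNA3, and at 14.9 and 14.2 FPKM in WT. Neither hairpin group overlapped WT, and the margin was small. The log2 change was -0.21 ± 0.07 with shRNA3 (SE, limma, adjusted p = 0.0426) and -0.19 ± 0.07 with shRNA1 (adjusted p = 0.0787), and the hairpins differed by 0.02 (95% interval -0.15 to 0.19, shRNA1 minus shRNA3). The shRNA3 call was lost without any 1 of the libraries of shRNA3 or WT (adjusted p = 0.0672 to 0.175) and with 4 other settings, and with libraries rescaled to the same total Arntl was also called lower with shRNA1 (adjusted p = 0.0393), as it was without shRNA1 replicate 2 (0.0331). Clock (chromosome 5, 76209868 to 76304792, minus strand) was at 5.96 and 5.97 FPKM with shRNA1, at 6.06 and 6.34 FPKM with shRNA3, and at 6.68 and 6.12 FPKM in WT. The shRNA3 and WT libraries of Clock overlapped, the shRNA1 libraries lay just below both, and no contrast called it, with a log2 change of -0.06 over both hairpins (95% interval -0.21 to 0.08, adjusted p = 0.438).

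Promoters of 4 genes that rose with shRNA3 and held a match, and of Cry1, which did not pass against WT, are shown, since E-boxes and D-boxes are the sites through which these genes are known to be switched on. RefSeq promoters (GRCm38.p6, 250 bases before to 50 after a start site) were matched for 9 members, all but Per2, with 13 start sites. Both strands were searched for the E-box CACGTG, the E′-box CACGTT, the D-box TTATGNAA, the RORE core AGGTCA (part of the site that ROR and REV-ERB receptors bind) and the CRE TGACGTCA. No matches in these promoters overlapped each other. Capitals mark every match, and each sequence runs 5′ to 3′ on the gene's strand.
Per1, chr11:69098699-69098998, plus strand: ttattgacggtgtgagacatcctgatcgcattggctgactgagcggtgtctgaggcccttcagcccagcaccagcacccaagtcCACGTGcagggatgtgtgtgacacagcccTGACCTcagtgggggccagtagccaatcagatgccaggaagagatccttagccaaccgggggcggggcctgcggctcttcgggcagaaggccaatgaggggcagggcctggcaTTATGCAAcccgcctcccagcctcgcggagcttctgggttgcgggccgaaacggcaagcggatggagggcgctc
Per3, chr4:151044616-151044915, minus strand: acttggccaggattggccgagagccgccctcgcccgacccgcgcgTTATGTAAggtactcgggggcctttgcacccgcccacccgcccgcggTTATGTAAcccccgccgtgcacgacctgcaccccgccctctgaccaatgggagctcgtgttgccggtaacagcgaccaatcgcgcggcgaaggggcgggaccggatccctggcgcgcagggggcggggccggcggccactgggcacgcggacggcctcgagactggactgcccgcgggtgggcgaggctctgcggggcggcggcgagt
Cry2, chr2:92434020-92434319, minus strand: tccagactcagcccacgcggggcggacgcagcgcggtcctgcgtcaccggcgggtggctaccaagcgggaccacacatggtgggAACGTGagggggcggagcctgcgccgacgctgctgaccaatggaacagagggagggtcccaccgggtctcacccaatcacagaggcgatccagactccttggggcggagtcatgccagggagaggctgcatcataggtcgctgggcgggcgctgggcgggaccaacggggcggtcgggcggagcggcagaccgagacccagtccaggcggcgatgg
Nr1d1, chr11:98775328-98775627, minus strand: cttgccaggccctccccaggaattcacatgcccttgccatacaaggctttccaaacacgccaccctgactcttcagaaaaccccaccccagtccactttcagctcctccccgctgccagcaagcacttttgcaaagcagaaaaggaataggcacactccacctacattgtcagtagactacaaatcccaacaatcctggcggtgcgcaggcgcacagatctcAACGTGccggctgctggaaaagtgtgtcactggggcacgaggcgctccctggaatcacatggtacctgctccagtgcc
Cry1, chr10:85185005-85185304, minus strand: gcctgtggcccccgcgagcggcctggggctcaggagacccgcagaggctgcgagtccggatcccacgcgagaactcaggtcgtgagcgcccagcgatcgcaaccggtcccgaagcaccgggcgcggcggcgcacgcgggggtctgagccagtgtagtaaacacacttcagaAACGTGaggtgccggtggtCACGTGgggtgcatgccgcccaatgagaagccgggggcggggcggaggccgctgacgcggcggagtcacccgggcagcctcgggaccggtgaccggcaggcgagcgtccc
Per1 held an E-box, a RORE core and a D-box, with their first bases 166, 137 and 24 bases before the start site. The other Per1 promoter, chr11:69099902-69100201, held none of the 5 motifs and is not shown. Per3 held 2 D-boxes, 205 and 158 bases before its start site, and no E-box in this window. Cry2 held an E′-box 166 bases and Nr1d1 one 28 bases before the start site. Cry1, which was not called against WT with either hairpin, held an E-box at 60 and an E′-box at 79 bases before its start site. Among all 32851 promoters of this length 7.15% held the E-box, 4.68% the E′-box, 3.38% the D-box, 16.3% the RORE core and 1.79% the CRE. Counted by gene, over 27025 genes with any number of promoters, the shares were 8.09%, 5.44%, 3.99%, 18.1% and 2.03% in the same order. Of the 9 matched members 2 held an E-box, 3 an E′-box, 2 a D-box, 4 a RORE core (Per1, Arntl, Clock and Nr1d2) and 0 a CRE. Arntl and Clock held the RORE core at a single start site each, and their other start sites held none of the 5. The promoter of Dbp held none of the 5. A match is a description of the sequence and does not show that a factor was bound.

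The period genes rose with shRNA3. Per1, a repressor that also responds quickly to serum, glucocorticoids and cAMP (chromosome 11, 69095217 to 69109960, plus strand), was at 11.5 and 9.81 FPKM with shRNA1, at 16.7 and 17.8 FPKM with shRNA3, and at 6.90 and 7.73 FPKM in WT. The 3 groups did not overlap, with shRNA3 highest. Per1 rose 2.36-fold with shRNA3 (log2 change 1.14 ± 0.09, adjusted p = 3.28e-05) and 1.45-fold with shRNA1 (0.48 ± 0.09, adjusted p = 0.00405). Per2, the PER protein whose loss shortens or ends the rhythm in mice (chromosome 1, 91415982 to 91459324, minus strand), was at 3.78 and 3.58 FPKM with shRNA1, at 6.95 and 7.24 FPKM with shRNA3, and at 2.81 and 3.07 FPKM in WT. Again shRNA3 stood highest and no groups overlapped. Per2 rose 2.41-fold with shRNA3 (1.04 ± 0.08, adjusted p = 3.75e-05) and 1.25-fold with shRNA1 (0.25 ± 0.08, adjusted p = 0.0453). The shRNA1 call of Per2 was weak: it was lost without any 1 of the 6 libraries (adjusted p = 0.0664 to 0.186) and with 4 other settings, the highest of them 0.0959 with libraries rescaled to the same total. Per3 (chromosome 4, 151003652 to 151044665, minus strand), the period gene that mice can lose with little change in their rhythm, was at 7.50 and 7.56 FPKM with shRNA1, at 11.1 and 12.1 FPKM with shRNA3, and at 6.37 and 6.53 FPKM in WT. Its groups did not overlap either. Per3 rose 1.80-fold with shRNA3 (0.76 ± 0.07, adjusted p = 6.67e-05), while with shRNA1 it was 1.17-fold WT and did not pass (0.20 ± 0.07, adjusted p = 0.0535). The shRNA1 value of Per3 passed with a pseudocount of 0.1 (adjusted p = 0.0465), with quantile normalization (0.0418) and without a trend in the prior variance (0.0448). Per3 lies within Camta1 on the same strand, with 0 shared exonic bases. Camta1 was at 2.49 and 2.21 FPKM with shRNA1, 2.92 and 3.15 FPKM with shRNA3, and 1.86 and 1.82 FPKM in WT, also highest with shRNA3. The part of Camta1 reads in the Per3 values was not tested.

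Each period gene was lower with shRNA1 than with shRNA3. The differences, shRNA1 minus shRNA3, were -0.66 ± 0.09 for Per1 (adjusted p = 0.000853), -0.79 ± 0.08 for Per2 (adjusted p = 0.000265) and -0.56 ± 0.07 for Per3 (adjusted p = 0.000539). In this comparison 42.5% of all genes were called, 20.5% higher and 22.0% lower with shRNA1. Of the 10 members 7 were lower with shRNA1 and 0 higher. The members' median was -0.56, against -0.01 for all genes.

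The cryptochromes differed from each other. Cry2 (chromosome 2, 92403646 to 92434043, minus strand) was at 11.6 and 11.2 FPKM with shRNA1, at 11.5 and 12.2 FPKM with shRNA3, and at 6.38 and 6.88 FPKM in WT. Every library with a hairpin lay far above WT, and the hairpin groups overlapped. Cry2 rose 1.72-fold with shRNA1 (0.70 ± 0.07, adjusted p = 0.000182) and 1.79-fold with shRNA3 (0.75 ± 0.07, adjusted p = 6.48e-05). The hairpins' difference was -0.05 with a 95% interval from -0.21 to 0.10 (adjusted p = 0.554). With the 4 knockdown libraries fitted as 1 group Cry2 still passed (adjusted p = 0.00314). Of its exonic bases 4.67% are shared with D930015M05Rik on the opposite strand, which was at 1.12 and 1.23 FPKM with shRNA1, 0.949 and 1.33 FPKM with shRNA3, and 0.313 and 1.26 FPKM in WT. Cry1, the stronger repressor of the pair in mouse cells (chromosome 10, 85131700 to 85185064, minus strand), was at 2.68 and 2.21 FPKM with shRNA1, at 3.70 and 3.75 FPKM with shRNA3, and at 3.14 and 2.77 FPKM in WT. Its shRNA3 libraries were highest and its shRNA1 libraries lowest, without overlap. Neither passed against WT, with log2 changes of -0.20 ± 0.10 with shRNA1 (adjusted p = 0.165) and 0.26 ± 0.10 with shRNA3 (adjusted p = 0.0646). The shRNA3 value passed with quantile normalization (adjusted p = 0.0437) and without a trend in the prior variance (0.0388). The difference between the hairpins did pass (-0.46 ± 0.10, shRNA1 minus shRNA3, adjusted p = 0.00913), but not without shRNA1 replicate 2 (adjusted p = 0.0539).

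Of the REV-ERB genes, Nr1d1 rose with shRNA3 and Nr1d2 fell with shRNA1. Nr1d1 encodes REV-ERBα, a haem-binding repressor of Arntl (chromosome 11, 98767932 to 98775333, minus strand). It was at 17.2 and 15.5 FPKM with shRNA1, at 32.3 and 32.6 FPKM with shRNA3, and at 15.1 and 16.6 FPKM in WT. The shRNA1 and WT libraries overlapped, and the shRNA3 libraries stood apart from both. Nr1d1 rose 2.05-fold with shRNA3 (0.99 ± 0.07, adjusted p = 1.94e-05), and the change with shRNA1 was 0.04 (95% interval -0.11 to 0.20, adjusted p = 0.666). The hairpins differed by -0.95 ± 0.07 (shRNA1 minus shRNA3, adjusted p = 5.64e-05). The 3′ end of Nr1d1 overlaps Thra, the thyroid hormone receptor α gene on the opposite strand, over 8.55% of its exonic bases. Thra was at 34.5 and 34.9 FPKM with shRNA1, 44.4 and 41.5 FPKM with shRNA3, and 28.2 and 30.9 FPKM in WT. It was thus also highest with shRNA3. The sources used here do not give the strand setting of the quantification, and the part of Thra reads in the Nr1d1 values was not tested.

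Nr1d2, the gene of REV-ERBβ (chromosome 14, 18204054 to 18239127, minus strand), was at 22.7 and 23.9 FPKM with shRNA1, at 35.1 and 34.9 FPKM with shRNA3, and at 35.6 and 34.3 FPKM in WT. The shRNA3 libraries lay within the WT range, and both shRNA1 libraries lay well below. Nr1d2 fell to 66.6% of WT with shRNA1 (-0.57 ± 0.05, adjusted p = 0.000126). With shRNA3 its log2 change was 0.00 (95% interval -0.12 to 0.11, adjusted p = 0.993). The difference between the hairpins was -0.57 ± 0.05 (shRNA1 minus shRNA3, adjusted p = 0.000143). Nr1d2 was called lower over the mean of both hairpins too (adjusted p = 0.00114), although its shRNA3 libraries lay within the WT range.

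Dbp had the highest fold of all members with shRNA3. It encodes the D-box binding activator of the PAR bZIP family (chromosome 7, 45705088 to 45710203, plus strand) and is a direct CLOCK and BMAL1 target. Dbp was at 7.28 and 6.15 FPKM with shRNA1, at 17.3 and 17.7 FPKM with shRNA3, and at 6.67 and 7.29 FPKM in WT. The shRNA1 and WT libraries overlapped, and both shRNA3 libraries lay above them all. Dbp rose 2.51-fold with shRNA3 (1.21 ± 0.08, adjusted p = 2.11e-05), and the shRNA1 change was -0.05 (95% interval -0.25 to 0.14, adjusted p = 0.668). The difference between the hairpins, -1.27 ± 0.08 (shRNA1 minus shRNA3, adjusted p = 4.23e-05), was the largest among the members. Sphk2, a sphingosine kinase gene on the opposite strand, shares 18.0% of the exonic bases of Dbp. Sphk2 was at 8.40 and 7.34 FPKM with shRNA1, 8.20 and 8.67 FPKM with shRNA3, and 7.76 and 8.03 FPKM in WT. The part of Sphk2 reads in the Dbp values was not tested.

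Ratios within a library do not change when a library is multiplied by a single factor, and 2 were taken after the values were seen. Nr1d1 over Nr1d2 was 0.759 and 0.648 with shRNA1, 0.923 and 0.934 with shRNA3, and 0.425 and 0.482 in WT. The groups did not overlap, and both hairpins stood above WT, with shRNA1 through less Nr1d2 and shRNA3 through more Nr1d1. Cry2 over Cry1 was 4.34 and 5.05 with shRNA1, 3.12 and 3.25 with shRNA3, and 2.03 and 2.48 in WT. This ratio was highest with shRNA1, again without overlap.

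**Figure D3:**
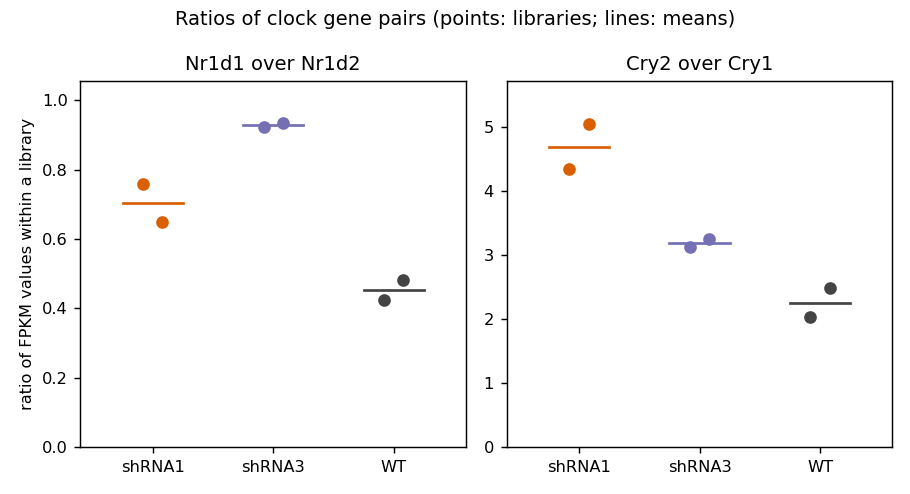
Ratio of FPKM values within each library for Nr1d1 over Nr1d2 and for Cry2 over Cry1, with shRNA1, shRNA3 and WT from left to right; points are libraries and lines are group means (n = 2). Both ratios lie above WT in all 4 knockdown libraries; the first is highest with shRNA3 (mean 0.928) and the second with shRNA1 (mean 4.70).

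The genes whose pattern over the 6 libraries was most like that of a member were taken by Pearson's correlation among 10592 named genes. For Per1, the member with the largest rise over both hairpins, they were Mapk3 (r = 0.9998), Adam15 (0.9993) and Hist1h2bc (0.9984), and 71 genes exceeded 0.99. For Nr1d2, with the largest fall, they were Hspa5 (0.9987), Apol9b (0.9969) and Sar1a (0.9953), and 23 genes exceeded 0.99. Hspa5 was at 634 and 648 FPKM with shRNA1, 994 and 982 FPKM with shRNA3, and 999 and 964 FPKM in WT. With 3 groups of 2 libraries, so high a correlation means mainly the same order and spacing of the 3 groups.

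Other genes of the clock pathway were followed from a list of 32, of which 28 passed the filter. With shRNA3 12 rose, 5 fell and 11 did not pass; with shRNA1 9 rose, 2 fell and 17 did not pass. The shares called among all genes were 55.2% with shRNA3 (27.4% higher, 27.8% lower) and 36.0% with shRNA1 (17.6% higher, 18.4% lower). Over both hairpins 12 rose, 1 fell and 15 did not pass, with a median log2 change of 0.07. There 50.0% of all genes were called, 24.1% higher and 25.9% lower. Between the hairpins 5 were higher and 7 lower with shRNA1, and 16 did not pass, where 20.5% of all genes were higher and 22.0% lower. With libraries rescaled to the same total, the list had 11 higher and 7 lower with shRNA3, 8 higher and 4 lower with shRNA1, and 9 higher and 4 lower over both hairpins. Of the 11079 genes tested, 6187, 4180 and 5667 were then called, in the same order. Npas2, Rora, Rorb and Prkaa2 were listed at 0 in all 6 libraries.

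The repressors Bhlhe40 and Bhlhe41, the DEC proteins, compete with CLOCK and BMAL1 for E-boxes. Bhlhe40 was at 73.4 and 73.9 FPKM with shRNA1, at 75.3 and 77.6 FPKM with shRNA3, and at 34.2 and 34.0 FPKM in WT. Both hairpins stood far above WT and close to each other. Bhlhe40 rose 2.16-fold with shRNA1 (1.09 ± 0.04, adjusted p = 2.00e-06) and 2.24-fold with shRNA3 (1.14 ± 0.04, adjusted p = 1.12e-06), and the hairpins' difference did not pass (-0.05, 95% interval -0.15 to 0.04). Bhlhe41 rose to 9.20 ± 0.189 FPKM with shRNA1 and 8.24 ± 0.247 FPKM with shRNA3, against 5.54 ± 0.368 FPKM in WT (SD, n = 2 each). Of the other repressors on the list Cipc passed in neither contrast with WT, and Ciart fell with shRNA3 (-0.48 ± 0.13, adjusted p = 0.0150) but not with shRNA1 (0.07 ± 0.13, adjusted p = 0.699). Ciart, known as a CLOCK and BMAL1 target in mouse, thus did not move with the Per genes. Its level was low, at 3.54 and 2.62 FPKM with shRNA1, 1.86 and 1.68 FPKM with shRNA3, and 2.64 and 3.08 FPKM in WT. The shRNA1 libraries of Ciart lay on either side of the WT range. Between the hairpins Ciart was higher with shRNA1 (0.55 ± 0.13, shRNA1 minus shRNA3, adjusted p = 0.0112), the other way round from the 7 members that differed. It was named after its values were seen, and its shRNA3 call was lost without WT replicate 2 (adjusted p = 0.0789) and without shRNA3 replicate 2 (0.0778). The difference between the hairpins was lost without shRNA1 replicate 1 (0.39, adjusted p = 0.0646) and without shRNA3 replicate 2 (adjusted p = 0.0640).

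The PAR bZIP relatives of Dbp also rose with shRNA3. Hlf was at 19.3 ± 0.356 FPKM with shRNA1, 31.0 ± 0.973 FPKM with shRNA3 and 16.1 ± 0.411 FPKM in WT. Its 3 groups did not overlap. Hlf rose 1.93-fold with shRNA3 (0.91 ± 0.05, adjusted p = 9.45e-06) and less with shRNA1 (0.25 ± 0.05, adjusted p = 0.00834). Tef was at 15.3 ± 0.435 FPKM with shRNA1, 21.4 ± 0.218 FPKM with shRNA3 and 16.4 ± 0.433 FPKM in WT, a rise with shRNA3 (0.36 ± 0.05, adjusted p = 0.000757) and none that passed with shRNA1 (-0.10 ± 0.05, adjusted p = 0.180). Nfil3, which represses through D-boxes, rose with both, to 59.7 ± 3.47 FPKM with shRNA1 and 70.9 ± 0.474 FPKM with shRNA3, against 49.4 ± 0.717 FPKM in WT. Hlf, Tef and Nfil3 were each lower with shRNA1 than with shRNA3, by -0.66, -0.46 and -0.25 (adjusted p at most 0.00595).

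Among the output genes Ccrn4l, the gene of nocturnin, a rhythmic enzyme of the deadenylase family, had the largest change of the list over both hairpins. It was at 10.3 and 9.92 FPKM with shRNA1, at 11.6 and 11.4 FPKM with shRNA3, and at 3.87 and 3.39 FPKM in WT. Both hairpins stood far above WT. Ccrn4l rose 2.79-fold with shRNA1 (1.27 ± 0.07, adjusted p = 1.54e-05) and 3.17-fold with shRNA3 (1.43 ± 0.07, adjusted p = 5.39e-06). Nampt, the rate-limiting enzyme of NAD salvage, rose to 38.5 ± 1.01 FPKM with shRNA1 and 40.7 ± 0.303 FPKM with shRNA3, against 27.8 ± 2.12 FPKM in WT. Wee1, a kinase that holds back mitosis, rose with shRNA3 (0.31 ± 0.06, adjusted p = 0.00273) and did not pass with shRNA1 (adjusted p = 0.159).

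Among the enzymes that act on PER and CRY proteins, 3 of 11 tested kinases and phosphatases rose and 1 fell with each hairpin, and 7 did not pass, where 36.0% of all genes were called with shRNA1 and 55.2% with shRNA3. Csnk1e, the casein kinase that marks PER for breakdown, rose to 58.3 ± 3.24 FPKM with shRNA1 and 62.7 ± 0.526 FPKM with shRNA3, against 48.4 ± 1.40 FPKM in WT. Its close relative Csnk1d, given for comparison after its values were seen, was at 65.3 ± 0.446 FPKM with shRNA1, 66.9 ± 0.387 FPKM with shRNA3 and 65.6 ± 1.72 FPKM in WT and passed in no contrast. Ppp1cb rose with both hairpins (0.20 and 0.19), Csnk2a1 rose with shRNA3 (0.22) and Csnk2a2 fell with shRNA1 (-0.22). The call of Csnk2a2 was lost without either WT library (adjusted p = 0.0714 and 0.0685) or shRNA1 replicate 1 (0.101), that of Ppp1cb with shRNA1 without shRNA1 replicate 2 (0.0510), and that of Ppp1cb with shRNA3 with libraries rescaled to the same total (0.0727). Of 6 ubiquitin ligase and protease genes 1 fell with shRNA1 and 1 rose and 2 fell with shRNA3. Usp2, a deubiquitinase with a rhythmic transcript in mouse tissues, rose with shRNA3 (0.54 ± 0.14, adjusted p = 0.0122), though at only 1.85 and 2.43 FPKM, against 1.07 and 1.24 FPKM in WT. That call was lost without WT replicate 1 (adjusted p = 0.0578) and without shRNA3 replicate 2 (0.0853).

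**Figure D4:**
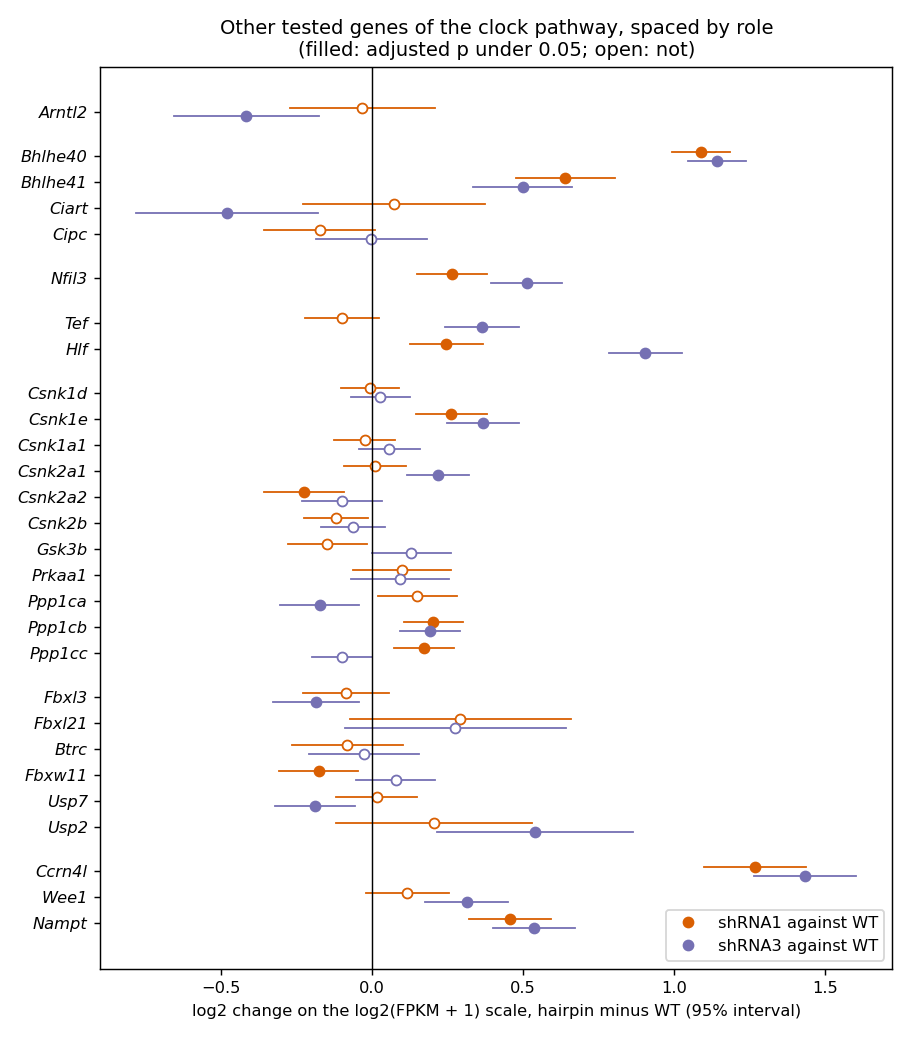
Log2 change of the 28 tested genes of the wider clock list with shRNA1 and with shRNA3 against WT on the log2(FPKM + 1) scale, with 95% intervals from limma, set in blocks by role; filled points passed an adjusted p of 0.05. Ccrn4l (1.27 and 1.43) and Bhlhe40 (1.09 and 1.14) lie farthest right with both hairpins, and Hlf (0.91) lies to the right with shRNA3.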

How the data were processed

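Per the labels' protocols, a strand-specific mRNA kit was used. The authors deposited 1 table per library of gene symbols and values taken here to be FPKM, because Cufflinks 2.2.1 is listed in the submitters' processing notes and the values are neither whole nor of a common sum. Also named there, without roles, are mm10, SAMtools 0.1.19, TopHat2 2.0.13 and Bowtie2 2.2.3. The sources used here do not give the annotation, the strand setting or the treatment of multiply mapped reads. FPKM are relative to the mapped total, so a rise of abundant genes lowers others. Absolute depth is unknown, and no counting intervals are given.

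On log2(FPKM + 1) values, limma 3.58.1 in R 4.3.3 fitted 1 mean per group for the 11079 of 24346 symbols that averaged 1 FPKM or more over all libraries. The prior variance followed a trend, with 3 residual and 4.96 prior degrees of freedom. Contrasts were two-sided: both hairpins, shRNA1 and shRNA3 against WT, and shRNA1 against shRNA3. Intervals are moderated and unadjusted. The fit was tested on simulated data with independent normal noise and the same change in both hairpin groups. The noise had the spread that the fit itself gave each gene, so that spread was not checked. The simulated test also does not cover genes that differ between the hairpins. Coordinates and overlaps came from the GENCODE annotation of GRCm38 (the assembly of mm10). Members, list and tests were chosen with earlier results of these data known. The rule named every member, and up to 4 genes a role of the wider list that were called over both hairpins. For the members with the largest rise and fall it also named the 3 genes most alike. The settings varied were the pseudocount (0.1 and 0.5), the filter (none, or 5 FPKM), the scaling (median of ratios, quantile, same total), a replicate block, the variance trend, 1 group for all knockdown libraries, and each library left out in turn. A gene of the list and a marker are not reported here. No member fell under the filter, so the exact test planned for such members was not needed. Python 3.11.15 with pandas 2.3.3, NumPy 2.4.6 and matplotlib 3.10.9 was used for the rest.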

Additional observations from a re-analysis of the deposited data

Results flagged for a closer look

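The hairpins' effects against WT differed in 19 of the core and wider clock genes. These were 7 of the 10 core genes and 12 of the 28 tested genes of the wider list. Each passed limma's test of shRNA1 minus shRNA3 with Benjamini-Hochberg adjustment over all genes (adjusted p from 4.23e-05 to 0.0295). By that test 42.5% of all genes differed, so the number from the wider list was near this background. Among the core genes the differences were -1.27 for Dbp, -0.95 for Nr1d1, -0.79 for Per2, -0.66 for Per1, -0.57 for Nr1d2, -0.56 for Per3 and -0.46 for Cry1. Among the wider list 7 were lower with shRNA1: -0.66 for Hlf, -0.46 for Tef, -0.28 for Gsk3b, -0.25 for Fbxw11, -0.25 for Nfil3, -0.21 for Csnk2a1 and -0.20 for Wee1. The other 5 of the wider list were higher with shRNA1, by 0.55 for Ciart, 0.38 for Arntl2, 0.32 for Ppp1ca, 0.27 for Ppp1cc and 0.20 for Usp7. The Wee1 difference was lost without shRNA1 replicate 1 (adjusted p = 0.156), shRNA3 replicate 1 (0.0540) or shRNA3 replicate 2 (0.151), without a filter (0.0538) and with the same total (0.0602). That of Ciart was lost without shRNA1 replicate 1 (0.0646) and without shRNA3 replicate 2 (0.0640), and that of Fbxw11 without shRNA1 replicate 1 (0.0501) and without shRNA3 replicate 1 (0.0513). That of Usp7 was lost without shRNA1 replicate 2 (0.139) or either shRNA3 library (0.101 and 0.0739), and that of Arntl2 without any 1 of the 4 knockdown libraries (0.0512 to 0.0837) and without a filter (0.0563). Both effects share the WT libraries.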

How the results depend on the processing

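Of the 26 called member results, over the 4 contrasts, 22 passed under every alternative that gave them a value, other than the fit of the knockdown libraries as 1 group. The 5 FPKM filter removed Per2 and Cry1, so it gave them none. The exceptions were Arntl over both hairpins and with shRNA3, Per2 with shRNA1 and Cry1 between the hairpins. Of the 53 called results of the wider list 32 passed on the same terms, and 21 were lost under at least 1 alternative. No member or list result reversed. With the knockdown libraries as 1 group 1513 genes, 1 member and 6 genes of the wider list were called over both hairpins, against 5538, 8 and 13; differences between the hairpins then count as spread by construction. In the fits without 1 library at a time, a group left with 1 library was assumed to vary like the other groups. Counts of members called in those fits are therefore not compared. With libraries rescaled to the same total 34.3% of the calls over both hairpins were higher, against 48.2%, and the median of all genes moved from -0.01 to -0.07. Replicate numbers are shared by the groups, and the main fit did not take them to pair libraries. Deviations of same-numbered libraries correlated at 0.01 between shRNA1 and WT and at -0.07 between shRNA3 and WT. Between shRNA1 and shRNA3 the correlation was 0.20. For that contrast the replicate block, which allows for such a pairing, also called 7 members lower with shRNA1 and 0 higher. In that fit 2099 of the 11079 genes were higher and 2209 lower with shRNA1. With the replicate block 5205 genes were called over both hairpins, and Arntl with shRNA3 (adjusted p = 0.0602) and Per2 with shRNA1 (0.0692) were lost among the members. Each group had 2 libraries.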
